A study of Homo sapiens with 6 samples.

Results

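MicroRNA genes that gave reads in a messenger RNA experiment on Huh7 cells, an established line from a human hepatocellular carcinoma, are described here together with the genes around them. A gene was taken when its name in the table was that of a microRNA gene (MIR or MIRLET and a number, with an optional letter or copy number) and its mean over the 6 libraries was at least 1 RPKM, the number of reads for each kilobase of the gene and each 1000000 assigned reads of the library. Of 497 microRNA gene rows, 118 met the rule, out of 33707 rows in the whole table, of which 13158 had a mean of at least 1 RPKM. The level therefore chose these genes, and the levels below are a description. The mean reached 1 RPKM in each group for 108 of them, in the mimic group alone for 8 and in the control group alone for 2.

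The study compared Huh7 cells at day 2 with mimics-NC, a negative control (3 libraries), against Huh7 cells at day 2 with miR-361-3p mimics, a synthetic microRNA (3 libraries). Both oligonucleotides came from RiboBio and were delivered with a lipid reagent, and a stranded kit for messenger RNA was used on RNA taken up in TRIzol. The control libraries carry the genotype WT and a treatment tag naming wild type cells, although their titles name mimics-NC, and the cell line tag of the mimic library of replicate 3 reads Huh8, although its title reads Huh7. No label says that the libraries of a group came from separate cultures, and the spread behind each p-value may thus be technical. Of 13 hepatocyte markers, 12 had a mean of at least 1 RPKM, among them APOB at 464 RPKM, while TTR was at 0.428 RPKM. At least 1 RPKM was reached by 1 of 5 immune markers (LYZ), 1 of 4 endothelial markers (PECAM1), 0 of 4 fibroblast or stellate markers and 0 of 4 cholangiocyte markers.

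A microRNA starts as part of a longer transcript, often an intron of another gene, from which the nuclear enzyme Drosha with DGCR8 cuts a hairpin that Dicer trims to the short mature strand. Mirtrons are hairpins that are themselves short introns: splicing frees them in place of Drosha, so they begin and end with the bases of splice sites. Libraries of messenger RNA do not capture mature microRNAs as such, so reads in these rows come from longer RNA that covers the hairpin, and they do not measure the mature strand.

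RefSeq (build GRCh38.p14) held a hairpin for 105 of the 118 genes, with the table's start and end for 96 of them, and mature strands for 109. The mature strands of the 7 genes that passed the test of mimic against control (below) are shown first. The seed (bases 2 to 8 from the 5′ end, which pair with target messenger RNA) is in capitals.
hsa-miR-6781-5p: cGGGCCGGaggucaagggcgu
hsa-miR-6781-3p: uGCCUCUUuuccacggccucag
hsa-miR-6505-5p: uUGGAAUAggggauaucucagc
hsa-miR-6505-3p: uGACUUCUaccucuuccaaag
hsa-miR-6819-5p: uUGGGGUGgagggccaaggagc
hsa-miR-6819-3p: aAGCCUCUguccccaccccag
hsa-miR-4787-5p: gCGGGGGUggcggcggcauccc
hsa-miR-4787-3p: gAUGCGCCgcccacugccccgcgc
hsa-miR-3184-5p: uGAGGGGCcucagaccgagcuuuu
hsa-miR-3184-3p: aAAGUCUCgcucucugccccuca
hsa-miR-3665: aGCAGGUGcggggcggcg
hsa-miR-92b-5p: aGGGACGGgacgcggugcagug
hsa-miR-92b-3p: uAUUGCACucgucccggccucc
The seed of hsa-miR-6819-5p was also held by MIR6737 and that of hsa-miR-92b-3p by MIR25. Among the 179 mature strands of the measured genes, 12 seeds were held by more than 1 gene, among them the seeds of the MIR941, MIR6859 and MIR1233 copies. Families with a shared seed but separate genes included let-7, shown by its 3 measured genes MIRLET7F1, MIRLET7I and MIR98, and the pair MIR221 and MIR222.
hsa-let-7f-5p: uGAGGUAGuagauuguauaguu
hsa-let-7i-5p: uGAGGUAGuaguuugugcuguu
hsa-miR-98-5p: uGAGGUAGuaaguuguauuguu
hsa-miR-221-3p: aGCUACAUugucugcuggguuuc
hsa-miR-222-3p: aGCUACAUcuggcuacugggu

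The position of a hairpin inside its intron also shows in its letters. The table's exons placed 5 of the measured genes exactly on a whole intron: MIR877 in ABCF1 (chr6:30584332-30584417), MIR6807 in TRIM28 (chr19:58550285-58550376), MIR6891 in HLA-B (chr6:31355224-31355316), and MIR1233-1 and MIR1233-2 in GOLGA8A and GOLGA8B. Their hairpins begin with GU and end with AG, in capitals here, as spliced introns do.
MIR877: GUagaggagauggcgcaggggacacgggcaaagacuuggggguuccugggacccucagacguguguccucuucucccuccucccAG
MIR6807: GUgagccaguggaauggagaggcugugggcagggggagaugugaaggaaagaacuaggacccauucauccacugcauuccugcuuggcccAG
MIR6891: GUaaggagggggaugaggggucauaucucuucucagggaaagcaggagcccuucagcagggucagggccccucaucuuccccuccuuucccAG
Another group ends with the intron but begins inside it. MIR6781 in BECN1 (chr17:42823880-42823943) and MIR6819 in MYH9 (chr22:36286847-36286907), both on the minus strand, are examples, with the last pair of bases of the intron in capitals.
MIR6781: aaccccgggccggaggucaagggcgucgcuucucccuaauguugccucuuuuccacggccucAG
MIR6819: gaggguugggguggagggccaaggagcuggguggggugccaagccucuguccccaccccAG
Of the measured genes that touch the downstream exon and have a RefSeq hairpin of the same bounds, 41 of 41 end in AG, against 3 of 36 that lie in an intron and do not touch it. Intronic microRNA rows under 1 RPKM gave the same picture, with 73 of 73 against 4 of 146. The 10 of them that fill an intron all begin with GU and end with AG. A hairpin that touches the downstream exon ends with the last bases of the intron itself. These endings therefore follow from the position chosen and are not particular to the measured genes. Of all 1560 RefSeq hairpins in the table of sequences, 16.9% end in AG.

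Most of the measured microRNA genes lay in introns. On the same strand, 86 were in an intron and 5 in or over an exon of another row, microRNA rows included. Among these 5 were MIR941-1, MIR941-2 and MIR941-3, each of which overlaps a neighbouring MIR941 copy. A further 8 lay opposite an exon, 3 opposite an intron and 8 in no other gene. The last 8 were rows that join a hairpin with longer exons, from 582 bases for MIR1539 to 54538 bases for MIR6820. A containing gene on the same strand was found for 91 genes, in 86 different genes, and the level of the microRNA gene was below that of the containing gene for 66 and above it for 25, compared per length. Of the 345 intronic rows, 24.9% reached 1 RPKM, beside 15.1% of the 53 rows in no other gene. The share was 9.38% of 32 rows opposite an intron and 27.6% of 29 opposite an exon. It was 25.8% of 31 rows longer than a hairpin and 71.4% of 7 in or over an exon, the class that holds these MIR941 copies.

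**Figure D1:**
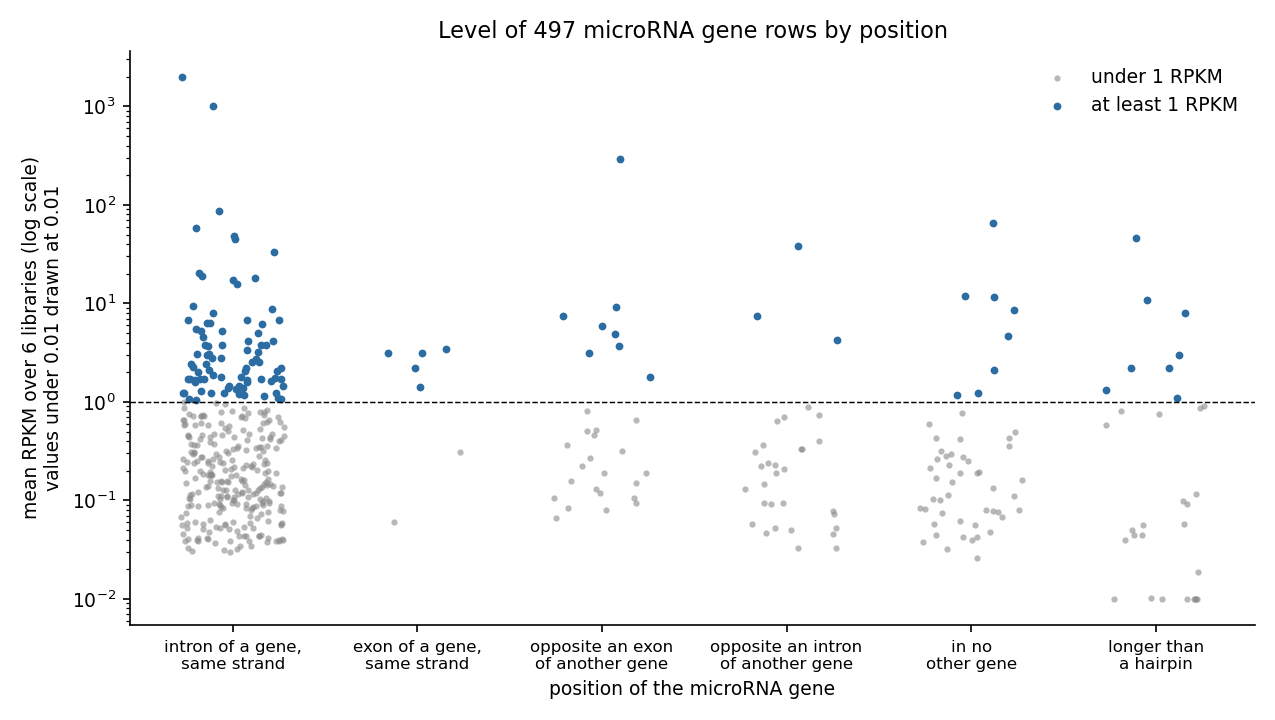
Mean RPKM over the 6 libraries (log axis) of the 497 microRNA gene rows, grouped by position, with the 118 genes at or above 1 RPKM in blue and the other rows in grey. Most blue points lie between 1 and 10 RPKM, and MIR1282 (1999 RPKM) and MIR6728 stand at the top of the intron column.

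Just inside the threshold stood MIR1286 at 1.04 RPKM and MIR6868 at 1.06 RPKM, and just outside it MIR5581 at 0.986 RPKM and MIR4461 at 0.985 RPKM. Because a hairpin is so short, these levels rest on few reads: a mean of 2.67 reads for MIR6868 and MIR5581 and of 3.33 reads for MIR1286 and MIR4461. Of the 118 genes, 17 had a mean of at least 100 reads per library, 47 had 10 to under 100 and 54 had under 10, and 7 had no read in at least 1 library. The libraries held 35020139 to 52977132 assigned reads, of which 18438 to 28596 lay in these genes.

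Many of the measured intronic microRNA genes sat at the very end of their introns. The downstream exon was touched by 45 of the 86 (52.3%), beside 79 of 259 intronic rows under 1 RPKM (30.5%). An exon within 10 bases on either side was found for 51 (59.3%) beside 87 (33.6%). The median intron had 692 bases in the measured set and 2894 bases in the other rows, and 34 introns (39.5%) beside 49 (18.9%) had at most 300 bases. The containing genes of the measured set had a median of 10.9 RPKM, those of the other rows 3.13 RPKM. No test was made of these differences, since the level chose the set. A read that crosses from an exon into an adjoining hairpin could be counted in either row or in both. So could one from the last part of an unspliced intron. The part of such reads in these levels was not tested.

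**Figure D2:**
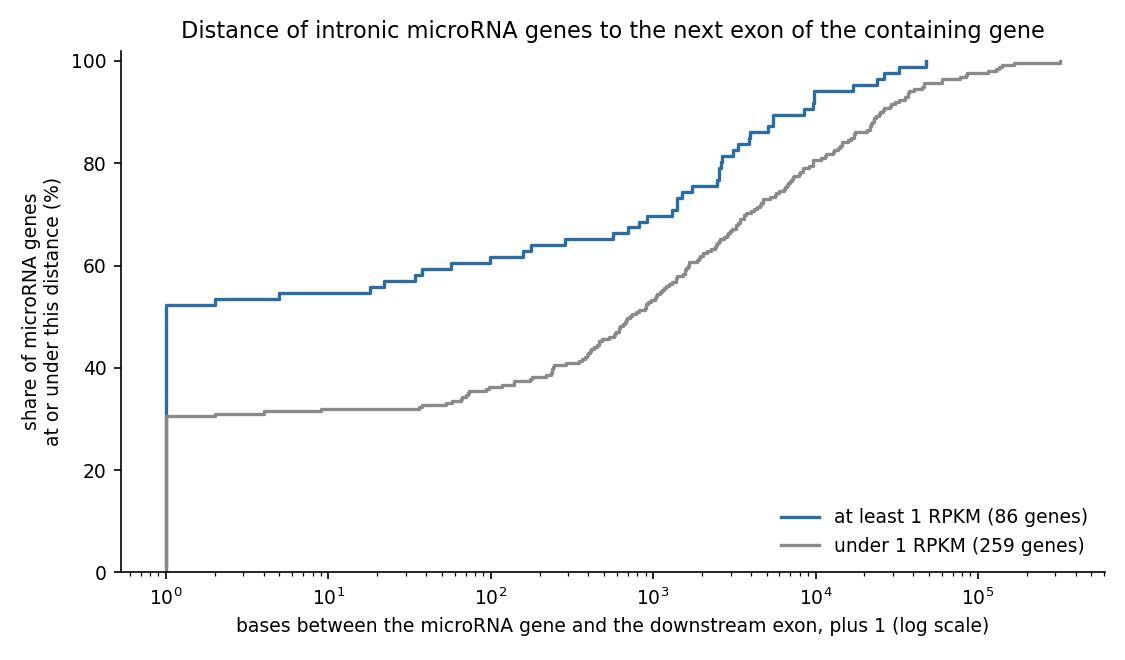
Share of intronic microRNA genes (y axis, %) at or under each distance to the downstream exon of the containing gene (x axis, bases plus 1, log scale), for 86 genes with at least 1 RPKM (blue) and 259 under it (grey). The blue line starts at 52.3% and the grey line at 30.5%, the shares that touch the exon.

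Reads were concentrated in a few rows. MIR1282 (chromosome 15, minus strand) had 1634, 2015 and 1983 RPKM in the control libraries and 2052, 2149 and 2164 in the mimic libraries, and alone took 32.9% to 40.7% of all reads in the 118 genes. Its groups did not overlap, the control library of replicate 1 was the lowest, and the log2 fold change of 0.18 ± 0.08 (SE) did not pass the test (limma, adjusted p = 0.170). MIR1282 lies opposite an exon of SERF2, a gene of a small protein linked to protein aggregation, whose level rose from 159 ± 11.0 to 196 ± 4.60 RPKM (SD, n = 3 each; log2 0.30 ± 0.05, limma adjusted p = 0.00936). On its own strand MIR1282 lies in an intron of RP11-296A16.1, at 6.23 RPKM (log2 0.17 ± 0.06, limma adjusted p = 0.0669). How the counting treated strand is not given, and reads of a pair of genes on opposite strands cannot be told apart. MIR101-2 and RP11-125K10.5 lie on opposite strands over nearly the same bases. Per library, controls first, MIR101-2 had 4, 6, 5, 3, 5 and 8 reads and RP11-125K10.5 had 3, 6, 5, 3, 5 and 8. Whether reads were counted in both rows of such a pair was not tested.

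MIR6728 touches an exon of ENO1, which encodes the glycolytic enzyme enolase, and had 1149, 1098 and 920 RPKM in the controls and 851, 1089 and 897 with the mimic. These groups overlapped, as did those of ENO1 itself, at 315 ± 35.4 and 285 ± 26.7 RPKM. Like its containing gene, MIR6728 was highest in replicate 1 among the controls and in replicate 2 among the mimic libraries.

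MIR3661 had 307, 319 and 293 RPKM in the controls and 282, 276 and 282 with the mimic, so each mimic library was under each control library, yet the log2 change of -0.13 ± 0.04 did not pass (adjusted p = 0.0651). It lies opposite an exon of CTD-2410N18.5, a row at 307 RPKM. MIR762, opposite BCL7C, had a mean of 87.5 ± 5.22 RPKM in the controls and 84.1 ± 10.9 with the mimic, although BCL7C itself stood at 3.22 RPKM. MIR6723, opposite the mitochondrial pseudogene MTCO1P12, gave 60.4 ± 4.25 and 56.6 ± 7.64 RPKM, near the pseudogene's 59.2 ± 3.86 and 55.9 ± 5.92 RPKM. On the same strand, MIR762 lies in an intron of MIR762HG (0.754 RPKM) and MIR6723 in an intron of RP5-857K21.4 (0.145 RPKM). Neither containing gene was tested. Of the 118 genes, 20 lay opposite an exon of another gene. This count includes genes that were placed above in an intron on the same strand or among the rows longer than a hairpin.

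The rows longer than a hairpin include those of a few well known microRNAs, and which RNA gave their reads was not tested. The MIR122 row joins exons of both strands over 4594 bases. MIR122, the gene of the most abundant liver microRNA, had 2.53, 2.29 and 2.37 RPKM in the controls and 2.10, 2.06 and 2.07 with the mimic. Each mimic library was below each control, with a log2 change of -0.17 ± 0.06 that did not pass the test (limma adjusted p = 0.0758). MIR34A, a target of p53, stood at 1.10, 1.15 and 0.965 RPKM in the controls and at 1.05, 1.13 and 1.19 with the mimic, and its groups overlapped. MIR130B, whose row shares 325 bases with exons of PPIL2 on the same strand, gave 7.81 ± 0.950 and 8.34 ± 0.438 RPKM.

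MIR302B, part of a cluster known from pluripotent stem cells, had 44.6 ± 2.46 RPKM in the controls and 46.6 ± 0.527 with the mimic over a row of 771 bases. The hairpins inside its introns were at low levels: MIR302A, MIR302C, MIR302D and MIR367 stood at 0.373, 0.213, 0.140 and 0.0515 RPKM. The row lies opposite exons of LARP7, at 20.8 RPKM, over 302 bases.

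Few microRNA genes passed the test of mimic against control. On log2(RPKM + 0.5) values, which understate the change of low genes, limma called 6 of the 118 higher and 1 lower with the mimic (adjusted p under 0.05 over all genes tested). That is 5.93%, where 21.5% of all genes tested were called, 11.7% higher and 9.85% lower. Of the other genes of at most 200 bases, 6.58% were called, 3.45% higher and 3.13% lower. Among other genes, the called share was 4.26% with under 10 reads, 9.83% with 10 to under 100 and 23.0% with at least 100. The microRNA genes gave 1 of 54, 5 of 47 and 1 of 17 in the same classes. At an unadjusted p under 0.05 (limma) there were 18 of the 118, beside 4721 of all 13158 genes tested. The groups did not overlap for 13 (41.4% of all genes tested did not), and the median log2 change was 0.07, beside 0.01 for all genes.

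**Figure D3:**
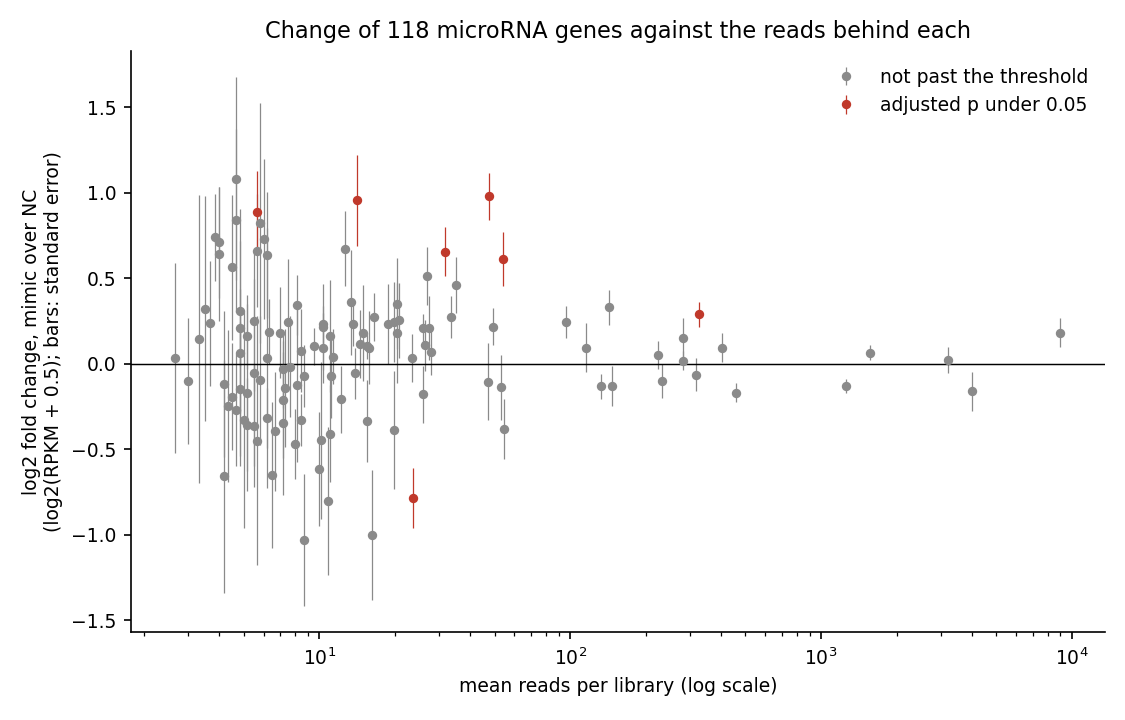
Log2 fold change, mimic over control, with its standard error (y axis) against mean reads per library (x axis, log scale) for the 118 microRNA genes, those past the threshold in red. The points narrow toward 0 as reads increase, and the 7 red points lie between 5.67 and 328 mean reads.

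The highest fold change among the called genes was that of MIR6781, which ends at an exon of BECN1, the gene of the autophagy protein Beclin 1. MIR6781 had 10.4, 13.0 and 10.8 RPKM in the controls and 27.7, 19.2 and 22.4 with the mimic, from 28 to 64 reads per library. All 3 mimic libraries were above all controls, and the log2 change was 0.98 ± 0.14 (SE; limma adjusted p = 0.00360), which passed with any 1 library left out. BECN1 also rose, from 22.5, 23.0 and 22.2 RPKM to 30.1, 30.4 and 30.0 (log2 0.41 ± 0.03, adjusted p = 0.000423).

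MIR6505 ends at an exon of PFKM, the muscle form of phosphofructokinase, and rose from 1.67, 4.52 and 2.96 to 6.03, 5.98 and 5.99 RPKM. The mimic libraries were nearly equal and all above the controls, with a log2 change of 0.96 ± 0.27 (adjusted p = 0.0436). PFKM rose as well, from 22.5 ± 0.730 to 28.1 ± 0.687 RPKM (log2 0.32 ± 0.04, adjusted p = 0.00204).

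MIR6819 ends at an exon of MYH9, which encodes a heavy chain of non-muscle myosin. Its 3 control values were 20.6, 15.5 and 12.4 RPKM and its mimic values 24.3, 23.8 and 25.3, so the mimic libraries were all higher and closer together (log2 0.61 ± 0.16, adjusted p = 0.0339). MYH9 went from 199 ± 4.46 to 212 ± 3.75 RPKM, a log2 difference of 0.09 ± 0.03 that did not pass (adjusted p = 0.0951).

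Of the other called genes, MIR4787 lies in no other gene, 77 bases from DOCK3 on the same strand. It rose from 6.21, 8.31 and 5.25 to 10.2, 11.2 and 10.1 RPKM (log2 0.65 ± 0.14, adjusted p = 0.0196), with each mimic library above each control. DOCK3, which regulates the cytoskeleton, had 1.53 ± 0.117 and 1.80 ± 0.182 RPKM and did not pass (adjusted p = 0.168).

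MIR3665 was the 1 called gene that fell, from 6.77, 6.83 and 5.40 to 2.72, 4.68 and 3.20 RPKM (log2 -0.78 ± 0.18, adjusted p = 0.0210), with no overlap between groups. It lies opposite an exon of SLAIN1, a microtubule regulator, whose 1.46 ± 0.200 and 1.22 ± 0.113 RPKM overlapped between groups.

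MIR3184, opposite an exon of NSRP1, a splicing regulator, rose from 1.01, 0.402 and 1.12 to 1.52, 1.90 and 2.38 RPKM on 2 to 10 reads per library (log2 0.89 ± 0.24, adjusted p = 0.0380). Its mean was under 1 RPKM in the controls, so it entered the set only through the mimic libraries. NSRP1 stood at 89.8 ± 5.15 and 92.2 ± 3.05 RPKM. On the same strand MIR3184 lies in an intron of RP11-1148O4.2, which had 0.0683 RPKM and was not tested.

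The MIR92B row, of 2466 bases, rose from 2.90, 2.59 and 2.52 to 3.68, 3.27 and 3.17 RPKM (log2 0.29 ± 0.07, adjusted p = 0.0321). It lies opposite an exon of THBS3, a thrombospondin, at 1.62 ± 0.232 and 1.95 ± 0.162 RPKM, which did not pass (adjusted p = 0.170).

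Apart from MIR6781, each of these calls was lost when certain libraries were left out, while its direction stayed. MIR6505 lost its call without control replicate 3 or any 1 mimic library (adjusted p 0.0979 to 0.103), and MIR6819 without any 1 library other than control replicate 1 (0.0519 to 0.0963). MIR92B did so without any 1 library other than control replicate 1 (0.0511 to 0.0970), MIR3665 without control replicate 1, control replicate 2 or mimic replicate 3 (0.0608 to 0.0718), and MIR4787 (0.0501 to 0.0615) and MIR3184 (0.0541 to 0.110) without control replicate 1, mimic replicate 2 or mimic replicate 3.

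**Figure D4:**
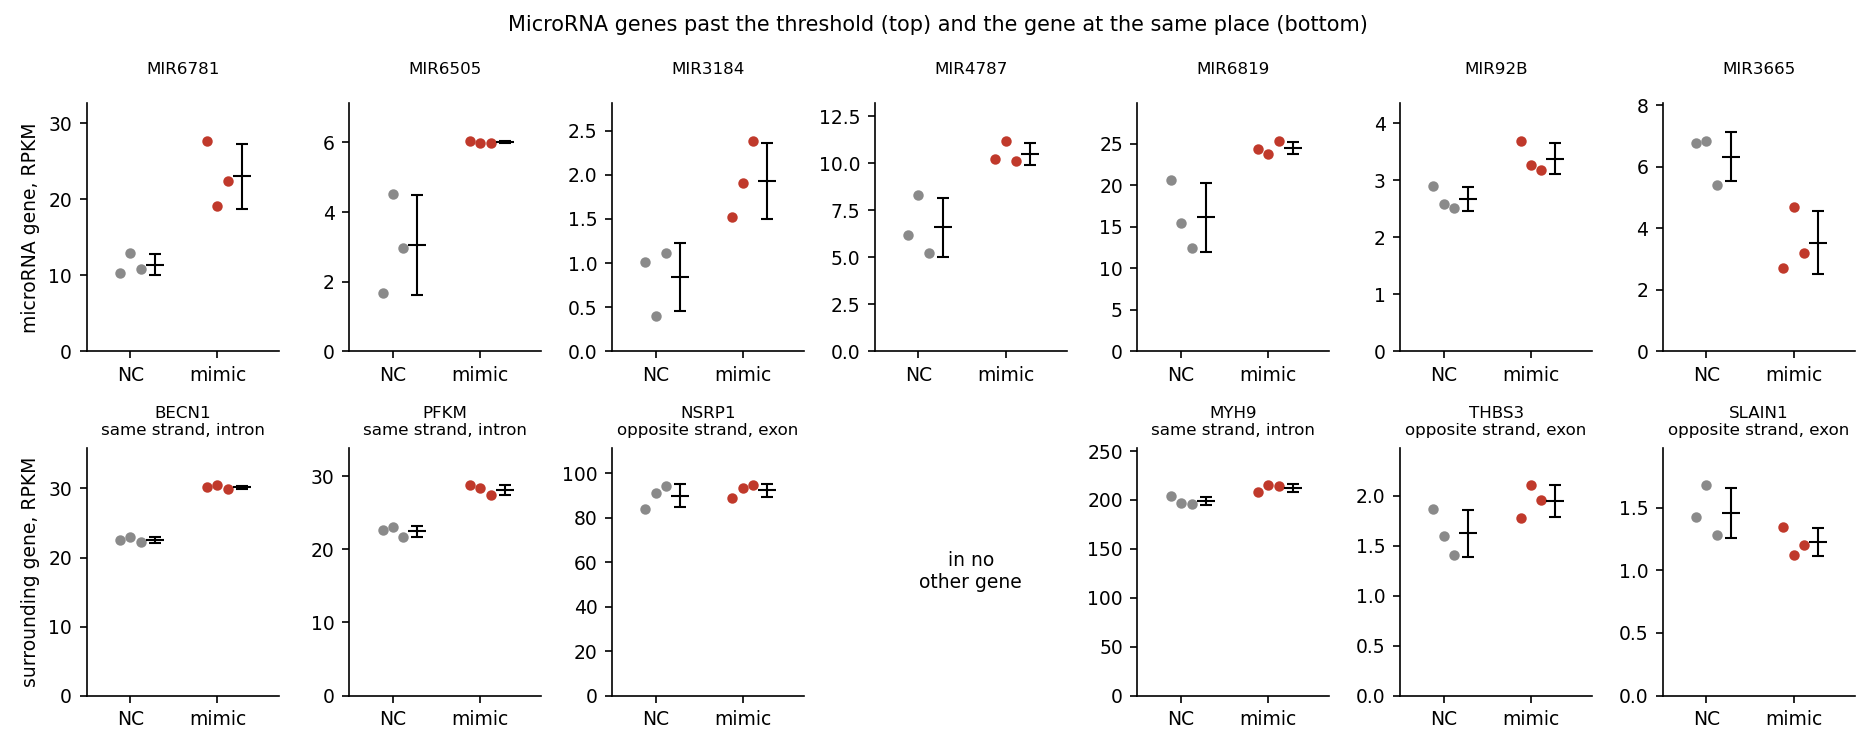
RPKM (y axes, from 0) in each library of the 7 called microRNA genes (top) and of the gene at the same place (bottom), control in grey and mimic in red, with mean and SD in black. MIR6781 and BECN1 are higher in each mimic library, while NSRP1 and SLAIN1 overlap between groups.

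Among the containing genes, BECN1, WIPI1 and DDIT3 rose and KIF18B, MCM7 and HMGA1 fell. Of 86, 73 had a mean of at least 1 RPKM and were tested: 10 rose and 10 fell (27.4%, beside 21.5% of all genes tested). The largest rise was that of WIPI1, an autophagy protein that holds MIR635, from 8.69 ± 0.0759 to 12.1 ± 0.335 RPKM (log2 0.46 ± 0.04, limma adjusted p = 0.000511), followed by BECN1. DDIT3, a stress response transcription factor that holds MIR616, rose from 26.1 ± 0.731 to 32.6 ± 3.21 RPKM. The largest fall was that of the mitotic kinesin KIF18B, which holds MIR6783, from 7.57, 7.13 and 6.68 to 3.66, 3.95 and 3.93 RPKM (log2 -0.81 ± 0.06, adjusted p = 0.000323). MCM7, a helicase subunit of DNA replication that holds MIR25, fell from 46.8 ± 2.32 to 35.0 ± 1.75 RPKM. HMGA1, a chromatin protein that holds MIR6835, fell from 59.1 ± 0.973 to 52.2 ± 1.62 RPKM.

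Whether a microRNA gene and its containing gene moved unequally was tested on their difference in each library. Across 246 pairs of a short gene and its containing gene, 77 of them with a microRNA gene of the set, 0 passed (limma, smallest adjusted p 0.888, so 0% were called). There were 7 at an unadjusted p under 0.05, 3 of them with a microRNA gene, and limma voom on recovered reads called 0 as well (11 at an unadjusted p under 0.05). For MIR6781 and BECN1 the difference in log2 change was 0.57, with a 95% interval of 0.04 to 1.09, and for MIR6819 and MYH9 it was 0.52 (-0.02 to 1.07). For MIR25 and MCM7 it was 0.02 (-0.95 to 0.99), and for MIR616 and DDIT3 0.02 (-0.48 to 0.52). MIR6783 and KIF18B differed by 0.34 (-0.23 to 0.91). MIR6835 and HMGA1 differed by 0.69 (0.11 to 1.27), an interval that leaves out 0, as do those of MIR6781 and BECN1 and of MIR3646 and HNF4A (0.78, 0.06 to 1.51), before adjustment over the 246 pairs.

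**Figure D5:**
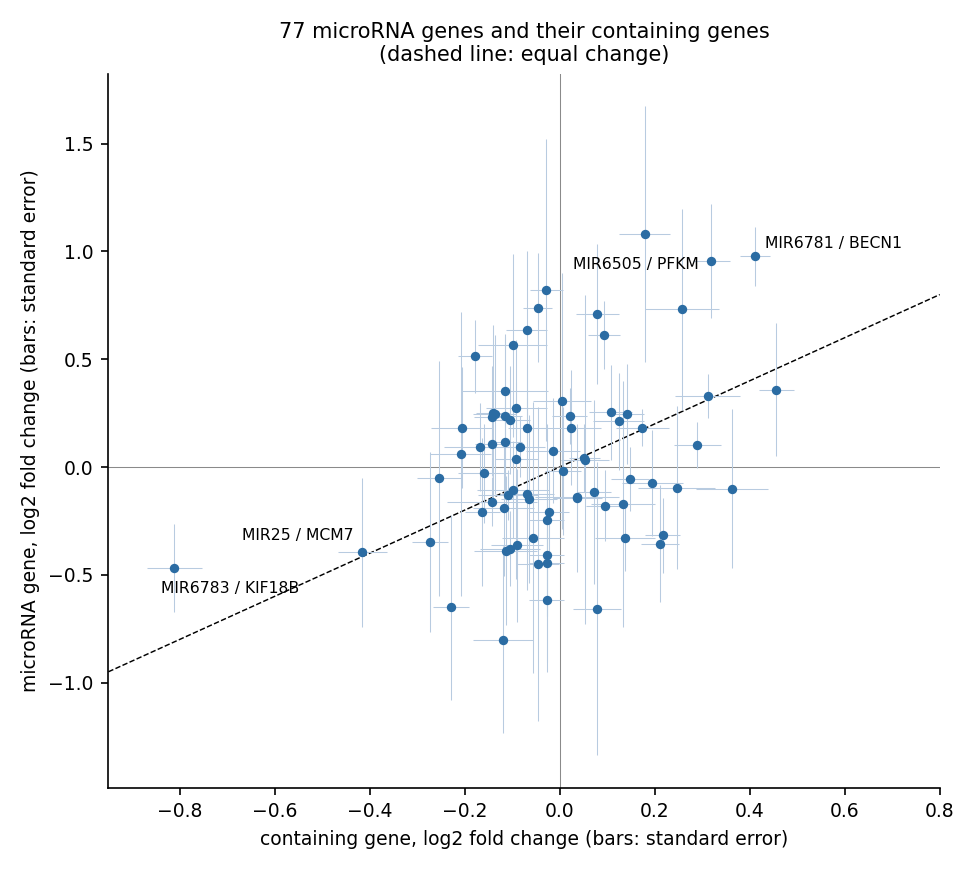
Log2 fold change of 77 microRNA genes (y axis) against that of their containing genes (x axis), each with its standard error; the dashed line marks equal change. MIR6783 in KIF18B and MIR25 in MCM7 lie at the lower left, MIR6505 in PFKM and MIR6781 in BECN1 at the upper right, and the vertical bars are far longer than the horizontal ones.

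None of the 3 let-7 genes, nor MIR221 or MIR222, passed the test. Of the let-7 family, which restrains growth genes in many tissues, MIRLET7F1 had 3.93 ± 0.403 and 4.39 ± 1.64 RPKM, MIR98 3.52 ± 1.34 and 4.09 ± 0.420, and MIRLET7I 0.891 ± 1.02 and 1.58 ± 0.554, control first. MIR98 lies in an intron of HUWE1, a ubiquitin ligase, which rose from 47.6 ± 0.953 to 52.6 ± 1.83 RPKM (log2 0.14 ± 0.04, limma adjusted p = 0.0380). MIR221 and MIR222, both in MIR222HG, had log2 changes of 0.23 ± 0.11 and -1.03 ± 0.39 (adjusted p = 0.173 and 0.102), the latter on 2 to 19 reads per library. Copies of near-identical hairpins, among them the 4 of MIR6859, the 4 of MIR941 and the 2 of MIR1233, can share reads, so the split of reads between them is uncertain: MIR6859-1 stood at 50.8 ± 6.48 RPKM in the controls and MIR6859-4 at 0.983 ± 0.854.

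The genes that make and use microRNAs were read from a list of 32 names, of which 24 were tested: 1 rose and 4 fell (20.8%, beside 21.5% of all genes tested), with a median log2 change of -0.0041 beside 0.01 for all genes. LIN28B, which blocks the maturation of let-7, fell from 43.6, 40.2 and 43.8 to 30.7, 30.0 and 32.4 RPKM (log2 -0.45 ± 0.05, limma adjusted p = 0.00129), with no overlap. RAN, the GTPase that drives export of hairpins and of much other cargo, fell from 60.3 ± 1.17 to 47.5 ± 1.74 RPKM (log2 -0.34 ± 0.04, adjusted p = 0.00150). DGCR8, the partner of Drosha, fell (log2 -0.19 ± 0.05, adjusted p = 0.0324), as did NCBP2 of the cap-binding complex (log2 -0.13 ± 0.04, adjusted p = 0.0492). AGO1, which carries microRNAs to their targets, rose (log2 0.17 ± 0.04, adjusted p = 0.0374). The calls of DGCR8 and AGO1 each held without 1 of the 6 libraries only, mimic replicate 1 and mimic replicate 2 respectively, with adjusted p up to 0.0966 and 0.116 otherwise. The call of NCBP2 lay just under the threshold of 0.05, and its result with libraries left out is not given. DROSHA (11.8 ± 0.332 and 12.9 ± 0.480 RPKM), AGO2 (2.41 ± 0.0888 and 2.02 ± 0.140 RPKM) and DICER1 (10.6 ± 0.344 and 11.0 ± 0.731 RPKM) did not pass.

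Of 47 textbook host genes of microRNAs, 28 were tested, 6 rose and 2 fell (28.6%, beside 21.5% of all genes tested), with a median log2 change of 0.07. CLCN5, a chloride transport gene that hosts a cluster on the X chromosome, rose from 3.96, 3.81 and 3.59 to 5.31, 5.24 and 5.37 RPKM (log2 0.44 ± 0.05, limma adjusted p = 0.00143). MIR22HG, the host of MIR22, rose from 4.58 ± 0.180 to 5.60 ± 0.239 RPKM. SMC4, a condensin subunit that hosts MIR15B and MIR16-2, fell from 42.1 ± 1.49 to 32.7 ± 0.901 RPKM (log2 -0.36 ± 0.04, adjusted p = 0.00143). Of 8 hepatocyte microRNA genes listed, 3 were in the table and 2 were tested, MIR122 and MIR148A, and neither passed. MIR148A had 1.07 ± 1.05 and 1.30 ± 0.986 RPKM, on 0 to 7 reads per library.

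Taken over the 118 genes, reads for each 1000000 assigned reads were 517 ± 19.8 in the control libraries and 537 ± 10.8 in the mimic libraries (SD, n = 3 each). The difference of means was 19.9, a description only, since levels in these libraries chose the genes. Without MIR1282 the difference was -4.80, and over the genes in no exon of another gene it was -7.97, so the direction depends on which large rows are included. MIR6728, the row with the next most reads, had a mean of 1056 RPKM in the controls and 946 with the mimic, and its groups overlapped. The sum without MIR6728 was not tested, so these negative values do not show that the remaining genes fell.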

How the data were processed

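The authors deposited RPKM for 33707 genes in 6 libraries, with gene length in bases and exon positions on GRCh38. Trimmomatic 0.36, Subread 1.5.1 with featureCounts, and edgeR 3.12.1 are named in the submitters' processing notes. No aligner, annotation release or strand setting is given there or in the labels. Reads were recovered as RPKM times length, where 100% of the products came within 0.01 of whole reads, and used for depth and for 1 alternative.

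A containing gene was the smallest row on the same strand whose span, of at most 2500000 bases on 1 chromosome, held the whole microRNA gene; the limit on span was added after the table was seen. Rows with a mean of at least 1 RPKM (13158) were tested as log2(RPKM + 0.5) with limma 3.58.1 in R 4.3.3, with an intensity trend, two-sided, and Benjamini-Hochberg adjusted over all of them at 0.05. Pairs were tested as per-library differences with limma without the trend. The script was tested on simulated data.

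The genes described and the gene lists were chosen with earlier results of these data known. Named were all called microRNA genes, the 10 with the highest RPKM and the 10 with the most reads, their containing genes, copies within 10000 bases of each other, those next to the threshold and up to 4 called members of a list; the other genes named were chosen after their values were seen. Alternatives were the pseudocount, filter, scaling, test, replicate block, definition of a containing gene and leaving out each library.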

Additional observations from a re-analysis of the deposited data

How the results depend on the processing

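Over all genes, 2835 passed, against 1716 without the filter on low values and 1780 to 2150 with 1 library left out. Of the microRNA genes, 7 passed, against 1 (MIR6781) without the filter, 4 with limma voom on recovered reads, and 4 to 11 with 1 library left out. Of the containing genes, 20 passed, and 12 to 16 did so with 1 library left out. The pair test called 0 under each alternative run. Median-of-ratios scaling moved the median log2 change of all genes from 0.012 to -0.00071 and the split of calls from 1539 higher and 1296 lower to 1356 and 1453; of the containing genes 9 rose and 15 fell, and of the microRNA genes 6 rose and 2 fell.

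With the replicate number as a block, 1976 genes, 7 microRNA genes (4 higher, 3 lower) and 13 containing genes passed. Deviations of same-numbered libraries correlated at -0.05, -0.02 and 0.02, and those of the other combinations at -0.11 to 0.12. No effect shared by number was thus seen, but such values cannot show that the libraries were not prepared in pairs.

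The summed difference of 19.9 reads per 1000000 reversed to -4.80 without MIR1282 and to -7.97 over genes in no exon of another gene, and was 12.4 to 31.1 with 1 library left out. The log2 change of MIR6868 reversed to -0.04 with a pseudocount of 2. With 1 library left out, uncalled log2 changes that crossed 0 ranged from -0.13 to 0.05 for MIR762, -0.02 to 0.07 for MIR621, -0.19 to 0.01 for MIR6723, -0.01 to 0.08 for MIR6820, -0.68 to 0.05 for MIR941-4, -0.77 to 0.76 for MIR1286, -0.31 to 0.70 for MIR6868 and -0.35 to 0.83 for MIR148A. The causes were not tested. Depth limits the set: 54 of 118 genes had under 10 reads per library.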
